A study of Homo sapiens with 8 samples.

Results

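The genes described here make up the route from acetyl-CoA to cholesterol and to unsaturated long-chain fatty acids, with the proteins that set its transcription. They are the 31 named genes of a cholesterol and fatty acid synthesis list, taken as the rows of the count files with those symbols, 31 of 50006 genes. Each was placed in 1 of 4 branches: 6 in the mevalonate branch, 11 in the sterol branch, 8 in the fatty acid branch and 6 among the regulators. The study sequenced RNA from BEAS-2B, an immortalised human bronchial epithelial line labelled wild type, grown in the serum-free medium LHC-9. Its title concerns adhesion of these cells. Mock cells received PBS, and the labels do not give their exposure time. FBG cells received fibrinogen, M1-FCP cells received FCPs derived from Der m 1, and αC cells received the αC domain of fibrinogen, each at 4 ng/µl for 4 h. Der m 1 is the group 1 allergen of a house dust mite. The labels do not expand FCP. In the title of the series the domain is said to come from the allergen, which differs from the sample labels. Each group had 2 libraries labelled as biological replicates, and no label says whether they came from separate cultures, so the tests measure only the spread between these samples.

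Cells build cholesterol from acetyl-CoA through mevalonate, isoprenoid diphosphates and squalene, and build fatty acids from the same precursor through malonyl-CoA. Most of these enzymes are transcribed under the sterol regulatory element-binding proteins, encoded by SREBF1 and SREBF2. SCAP escorts these proteins from the endoplasmic reticulum to the Golgi when sterols are low, and the INSIG proteins hold them back when sterols are high. In airway epithelium the pathway supplies membrane lipid.

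Total counts ran from 15137196 to 22258791 per library. Libraries of the same group were close to each other: among genes with at least 20 counts in a pair, 3.63% to 4.04% differed beyond the 1% point of counting error. M1-FCP and αC libraries stood apart from Mock and FBG in genes that identify the cells. The summed level of 12 airway epithelial markers was 1311 to 1319 CPM (counts scaled for library depth by TMM) in Mock, 1160.1 to 1181 in FBG, 4628 to 4693 in M1-FCP and 4627 to 4705 in αC, and GRHL2 was at 0 in both Mock libraries. The summed level of 8 fibroblast markers was 2390 to 2423 CPM in Mock, 1227 to 1235 in FBG, 230.5 to 231.7 in M1-FCP and 241.7 to 242.8 in αC, with COL3A1 at 0 in all 8 libraries. CDH1 and EPCAM, which define epithelium, were at 9.84 CPM or less in each Mock and FBG library. Of the same list, KRT8, KRT18 and KRT17 had means of 502, 446 and 348 CPM in Mock and 429, 358 and 351 in FBG. KRT5 had means of 2.03 CPM in Mock, 7.28 in FBG, 1581 in M1-FCP and 1603 in αC. COL1A1 made up most of the fibroblast sum, with means of 2155 CPM in Mock, 1089 in FBG, 173 in M1-FCP and 184 in αC. PDGFRA and LUM had Mock means of 0.57 and 0.43 CPM. The 5 blood and immune and 3 endothelial markers summed to at most 32.7 and 3.21 CPM. In M1-FCP and αC against Mock the genes of chromosome 9 lay at a median log2 difference of 0.53 above all autosomal genes, and none of the 31 genes lies there. The 15 autosomes that hold some of the 31 ran from -0.33 to 0.14 in M1-FCP and from -0.28 to 0.16 in αC. Those with most of them lay below 0: chromosome 11, with 5, was at -0.26 in M1-FCP and -0.25 in αC, and chromosome 17, with 4, at -0.25 and -0.28. Chromosome 22, with 1, was at -0.33 and -0.25, and in FBG these chromosomes were at -0.12, -0.09 and -0.18. The part of these differences in the results was not tested. A response of the cells and another difference between these libraries cannot be told apart in any comparison of M1-FCP or αC with Mock or FBG. In bulk RNA, fewer cells of a type and less RNA per cell cannot be told apart either.

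All 31 genes passed the filter on low counts. Most were lower than Mock after each treatment. In FBG, 23 of the 31 fell and 2 rose, against 26.3% of all 16307 tested genes that fell and 24.2% that rose. In M1-FCP, 24 fell and 4 rose, against 36.1% and 37.3% of tested genes. In αC, 24 fell and 3 rose, against 36.7% and 38% of tested genes. A gene was called when its adjusted p in edgeR's quasi-likelihood test, with Benjamini-Hochberg adjustment over all tested genes, was under 0.05.

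FDFT1, LSS, NSDHL and ACACA have a second entry on an alternate locus, so their reads may be split or lost, and they are described separately. Over the other 27, the median log2 fold change was -0.44 in FBG (22 fell, 2 rose), -0.52 in M1-FCP (24 fell, 3 rose) and -0.57 in αC (24 fell, 2 rose). The medians over all tested genes were 0.02, 0.06 and 0.06. Changes of at least 2-fold downward were found for 5 genes in FBG, 6 in M1-FCP and 6 in αC, against 1.59%, 8.84% and 8.96% of tested genes. The 3 comparisons share the 2 Mock libraries. Fitting FBG and Mock without the other 4 libraries gave 23 genes lower and 2 higher, the same counts. When libraries were scaled by their size alone, the all-gene median went from 0.02 to 0.13 in FBG and from 0.06 to 0.28 in M1-FCP, so small changes depend on the scaling. Among all tested genes 3010 then fell and 5186 rose in FBG, 4493 and 7679 in M1-FCP, and 4489 and 7782 in αC, against 4285 and 3941, 5884 and 6085, and 5984 and 6199 with TMM. With size alone, 23 of the 31 fell and 4 rose in FBG, 20 fell and 5 rose in M1-FCP, and 19 fell and 6 rose in αC.

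**Figure D1:**
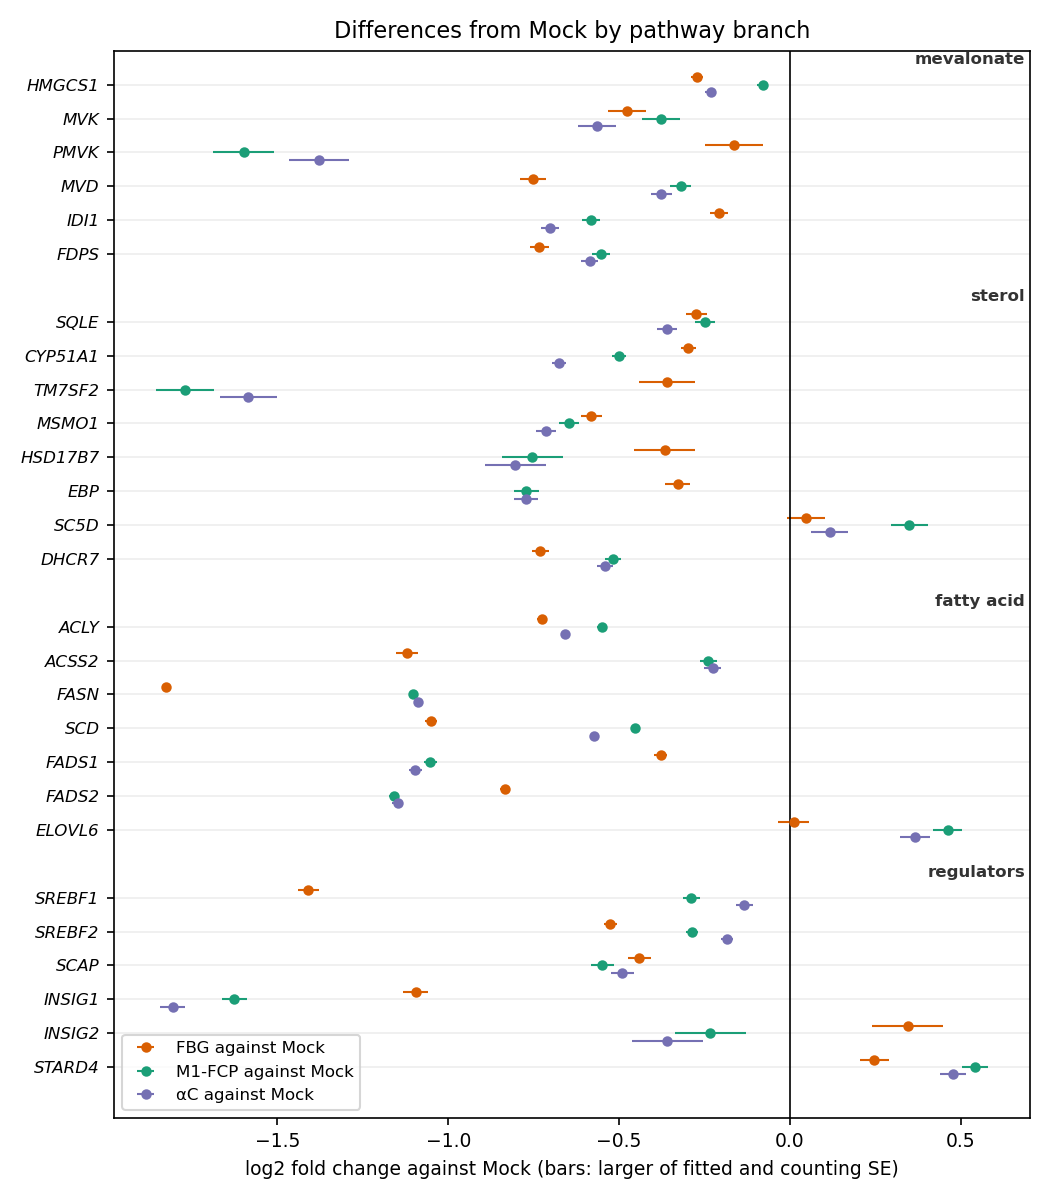
Log2 fold change against Mock (x axis) of the 27 genes without a second entry, by branch (y axis), for FBG, M1-FCP and αC; points are fitted values and bars the larger of the fitted and counting standard errors. Most points lie left of 0, with FASN lowest in FBG at -1.82 and INSIG1 lowest in αC at -1.81.

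Promoters were searched for the letters of motifs known from this pathway. RefSeq promoters (GRCh38.p14, 250 bases before to 50 after each start) were matched for 28 of the 31 genes; FASN, FDFT1 and SQLE had no match. On both strands, the NF-Y box CCAAT was found in 64.3% of the 28, against 35.8% of promoters of tested genes and 35.7% of all 27305 promoters. The GC box GGGCGG was found in 92.9% (67.5% of tested genes, 44.6% of all) and the E-box CACGTG in 14.3% (9.66% and 7.43%). The letters TCACNCCAC, a form of the sterol regulatory element, were found in 3.57% (1.16% and 1.15%), which is SREBF2 alone. The bases before the start are shown for SREBF2, as the gene holding that element, and for MVK and MSMO1, as the genes without a second entry that hold most NF-Y boxes; this last choice was made after the matches were seen. SREBF2 lies on the plus strand (chr22:41832855-41833104), and the capitals mark the element. MVK (chr12:109573544-109573793) and MSMO1 (chr4:165327419-165327668) also lie on the plus strand, and the capitals mark CCAAT or its reverse complement.
SREBF2: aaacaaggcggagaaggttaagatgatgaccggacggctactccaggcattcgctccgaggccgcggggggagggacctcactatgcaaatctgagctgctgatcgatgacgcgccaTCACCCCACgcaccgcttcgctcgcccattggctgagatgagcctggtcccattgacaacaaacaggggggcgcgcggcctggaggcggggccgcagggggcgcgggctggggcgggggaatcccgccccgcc
MVK: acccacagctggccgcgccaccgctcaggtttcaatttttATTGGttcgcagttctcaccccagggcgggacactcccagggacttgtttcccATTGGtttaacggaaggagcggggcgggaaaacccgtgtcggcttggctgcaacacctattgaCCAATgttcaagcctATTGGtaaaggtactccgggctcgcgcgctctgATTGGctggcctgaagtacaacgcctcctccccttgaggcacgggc
MSMO1: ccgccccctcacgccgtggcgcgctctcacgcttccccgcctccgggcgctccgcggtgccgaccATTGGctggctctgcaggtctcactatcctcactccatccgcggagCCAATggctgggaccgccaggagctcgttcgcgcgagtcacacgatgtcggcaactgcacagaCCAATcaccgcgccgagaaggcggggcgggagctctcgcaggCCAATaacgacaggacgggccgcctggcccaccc
The element of SREBF2 begins 133 bases before the start. MVK holds 5 NF-Y boxes, 1 of them on the plus strand, and MSMO1 holds 4, of which 3 are on the plus strand. A match describes letters in this window and does not show that a factor binds there.

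In the mevalonate branch, 5 of 6 genes fell in FBG and 6 of 6 in M1-FCP and in αC, with median log2 fold changes of -0.37, -0.46 and -0.58. HMGCS1 (chr5:43287470-43313412) makes HMG-CoA from acetyl units. It was at 724 and 747 CPM in Mock, 609 and 609.9 in FBG, 694 and 698 in M1-FCP and 624 and 628 in αC. Both FBG and both αC libraries lay lowest, and the groups did not overlap with Mock. Its log2 fold change against Mock was -0.27 ± 0.02 in FBG, -0.08 ± 0.02 in M1-FCP and -0.23 ± 0.02 in αC, and the small M1-FCP difference turned to 0.14 when scaled by library size only.

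Mevalonate kinase, MVK, was at 52.2 and 50.8 CPM in Mock, 37.7 and 36.3 in FBG, 40.8 and 38.5 in M1-FCP and 35.6 and 34.1 in αC. It changed by -28.1% in FBG, -23.01% in M1-FCP and -32.4% in αC. Phosphomevalonate kinase, PMVK (chr1:154924740-154942658), acts next. Its levels were 35.9 and 33.2 CPM in Mock, 29.8 and 31.9 in FBG, 11.3 and 11.5 in M1-FCP and 11.97 and 14.6 in αC. Mock and FBG libraries lay close together and the M1-FCP and αC libraries lay well below them without overlap. The log2 fold change was -0.16 ± 0.09 in FBG (adjusted p = 0.12 in edgeR's quasi-likelihood test, Benjamini-Hochberg), -1.60 ± 0.09 in M1-FCP and -1.38 ± 0.09 in αC.

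MVD, the decarboxylase that yields isopentenyl diphosphate, was at 138 and 141 CPM in Mock, 82.7 and 83.4 in FBG, 114 and 110.3 in M1-FCP and 109 and 107 in αC. FBG was the lowest group and Mock the highest, with no overlap between them. Against Mock it differed on the log2 scale by -0.75 ± 0.04 in FBG, -0.32 ± 0.03 in M1-FCP and -0.38 ± 0.03 in αC; with the trends of GC content and transcript length removed the M1-FCP value turned to 0.06 and the αC value was -0.07. IDI1, the isomerase that gives dimethylallyl diphosphate, differed by -0.21 ± 0.03 in FBG, -0.58 ± 0.03 in M1-FCP and -0.70 ± 0.03 in αC, and 12.4% of its exon bases are shared with other genes. FDPS, which makes farnesyl diphosphate, differed by -0.73 ± 0.03 in FBG, -0.55 ± 0.03 in M1-FCP and -0.59 ± 0.03 in αC. With GC content and length trends removed the M1-FCP and αC values were -0.16 and -0.20, still called. Of its exon bases 31.1% are shared with RUSC1-AS1, and without strand the reads of the pair cannot be told apart.

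Among the 8 sterol genes without a second entry, 7 fell in FBG, 7 fell and 1 rose in M1-FCP, and 7 fell in αC. Their median log2 fold changes were -0.34, -0.58 and -0.70. TM7SF2 (chr11:65111872-65116230), a sterol C14 reductase, fell most of the branch in M1-FCP and αC. It was at 38.1 and 41.3 CPM in Mock, 33.02 and 28.9 in FBG, 12.4 and 10.9 in M1-FCP and 13.03 and 13.4 in αC. The M1-FCP and αC libraries were the low ones, and FBG lay between them and Mock. On the log2 scale it differed by -0.36 ± 0.08 in FBG, -1.77 ± 0.09 in M1-FCP and -1.59 ± 0.08 in αC; the adjusted p in edgeR's quasi-likelihood test (Benjamini-Hochberg) was 0.000763 in FBG and 1.26e-14 in M1-FCP. With GC content and length trends removed the FBG value was -0.08 and not called.

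SQLE, squalene epoxidase, catalyses the first oxygen-dependent step. Its levels were 235 and 233 CPM in Mock, 195 and 192 in FBG, 200.2 and 194 in M1-FCP and 188 and 176 in αC. All treated libraries were below Mock, with changes of -17.3% in FBG, -15.8% in M1-FCP and -22.1% in αC. CYP51A1, the lanosterol demethylase (chr7:92112153-92134803), was at 341 and 339.9 CPM in Mock, 279.6 and 275 in FBG, 240.2 and 241 in M1-FCP and 212 and 214 in αC. The order from high to low was Mock, FBG, M1-FCP and αC, and no pair of groups overlapped. The log2 differences from Mock were -0.30 ± 0.02 in FBG, -0.50 ± 0.02 in M1-FCP and -0.68 ± 0.02 in αC.

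MSMO1, the sterol C4 methyl oxidase, whose promoter is printed above with its 4 NF-Y boxes, was at 206 and 208 CPM in Mock, 137 and 139.6 in FBG, 136 and 128 in M1-FCP and 125 and 127 in αC. It changed by -33.2%, -36.1% and -39.05% in FBG, M1-FCP and αC. HSD17B7, the 3-keto sterol reductase of the pathway, has a pseudogene and differed by -0.37 ± 0.09 in FBG, -0.75 ± 0.09 in M1-FCP and -0.80 ± 0.09 in αC. EBP, the sterol isomerase, was at 156 and 146 CPM in Mock, 123 and 118 in FBG, 89.2 and 88.1 in M1-FCP and 86.5 and 90.6 in αC, with FBG between Mock and the other 2 treatments. DHCR7, which makes cholesterol from its last precursor, was also highest in Mock, but with the treatments in another order. It was at 282 and 288 CPM in Mock, 172 and 171 in FBG, 202 and 195 in M1-FCP and 196 and 195 in αC. FBG was lowest there, and its log2 fold change was -0.73 ± 0.03 in FBG, -0.52 ± 0.02 in M1-FCP and -0.54 ± 0.02 in αC.

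SC5D, the sterol C5 desaturase, was not called lower in any treatment as fitted. It was at 43.4 and 44.2 CPM in Mock, 42.9 and 47.8 in FBG, 56.6 and 55.2 in M1-FCP and 47.9 and 47.2 in αC. M1-FCP libraries were highest, FBG and Mock overlapped, and the log2 fold change was 0.05 ± 0.06 in FBG (not called), 0.35 ± 0.05 in M1-FCP and 0.12 ± 0.05 in αC (not called). All 3 values turned negative, to -0.34, -0.18 and -0.41, once GC content and length trends were removed, and SC5D was then called lower in each treatment.

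The fatty acid branch held the largest fall in FBG. Of its 7 genes without a second entry, 6 fell in each treatment, with median log2 fold changes of -0.83 in FBG, -0.55 in M1-FCP and -0.66 in αC. FASN (chr17:82078338-82098236), the synthase that builds palmitate, was at 5728 and 5697 CPM in Mock, 1602 and 1623 in FBG, 2673 and 2649 in M1-FCP and 2684 and 2687 in αC. Mock was highest, M1-FCP and αC were close to each other, and FBG was lowest. FASN changed by -71.8% in FBG, -53.4% in M1-FCP and -52.99% in αC. The log2 fold change was -1.82 ± 0.01 in FBG, -1.10 ± 0.01 in M1-FCP and -1.09 ± 0.01 in αC, with adjusted p values of 1.63e-08, 4.6e-09 and 4.07e-09 in edgeR's quasi-likelihood test (Benjamini-Hochberg).

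ACLY and ACSS2 supply acetyl-CoA. ACLY cleaves citrate and was at 1321 and 1315 CPM in Mock, 792 and 801 in FBG, 902 and 897 in M1-FCP and 833 and 838 in αC. It differed from Mock by log2 values of -0.73 ± 0.01 in FBG, -0.55 ± 0.01 in M1-FCP and -0.66 ± 0.01 in αC. ACSS2, which activates acetate, was at 207 and 202 CPM in Mock, 93.8 and 94.5 in FBG, 174 and 173 in M1-FCP and 176 and 175 in αC. The 2 FBG libraries stood below all others, and the M1-FCP and αC libraries lay closer to Mock. Relative to Mock the log2 change was -1.12 ± 0.03 in FBG, -0.24 ± 0.03 in M1-FCP and -0.23 ± 0.03 in αC; scaled by library size only, the αC value was 0.01, turning its sign, and the M1-FCP value was -0.02 and not called. With GC content and length trends removed the M1-FCP value was -0.06, and the αC value of -0.04 was not called (adjusted p = 0.109 in edgeR's quasi-likelihood test, Benjamini-Hochberg).

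SCD, FADS1 and FADS2, the desaturases of fatty acids among the 31 genes, fell in every treatment. FADS3 of the further lists fell in FBG but rose in M1-FCP and αC. SCD (chr10:100347233-100364826), which makes oleate and palmitoleate, was at 3636 and 3566 CPM in Mock, 1738 and 1736 in FBG, 2635 and 2622 in M1-FCP and 2413 and 2423 in αC, and its log2 fold change was -1.05 ± 0.02 in FBG, -0.45 ± 0.01 in M1-FCP and -0.57 ± 0.01 in αC. FADS1 and FADS2 are neighbours on chromosome 11 that desaturate polyunsaturated fatty acids, and they share 4.46% and 2.43% of their exon bases with overlapping genes. FADS2 (chr11:61816203-61867354) was at 1299 and 1313 CPM in Mock, 734 and 731 in FBG, 591 and 579.9 in M1-FCP and 592 and 586 in αC. FADS1 was at 737 and 735 CPM in Mock, 567 and 565 in FBG, 359.8 and 349.8 in M1-FCP and 349 and 339 in αC. For both genes the M1-FCP and αC libraries were lowest and FBG lay between them and Mock. The log2 fold change of FADS2 was -0.83 ± 0.02 in FBG, -1.16 ± 0.01 in M1-FCP and -1.15 ± 0.01 in αC, and that of FADS1 was -0.38 ± 0.02 in FBG, -1.05 ± 0.02 in M1-FCP and -1.10 ± 0.02 in αC.

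ELOVL6, which lengthens palmitate to stearate, rose in M1-FCP and αC. It was at 68.6 and 72.2 CPM in Mock, 73.9 and 67.9 in FBG, 97.2 and 96.6 in M1-FCP and 88.5 and 92.9 in αC. FBG overlapped with Mock, whereas M1-FCP and αC lay above it. Its log2 fold change was 0.01 ± 0.04 in FBG (not called), 0.46 ± 0.04 in M1-FCP and 0.37 ± 0.04 in αC.

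**Figure D2:**
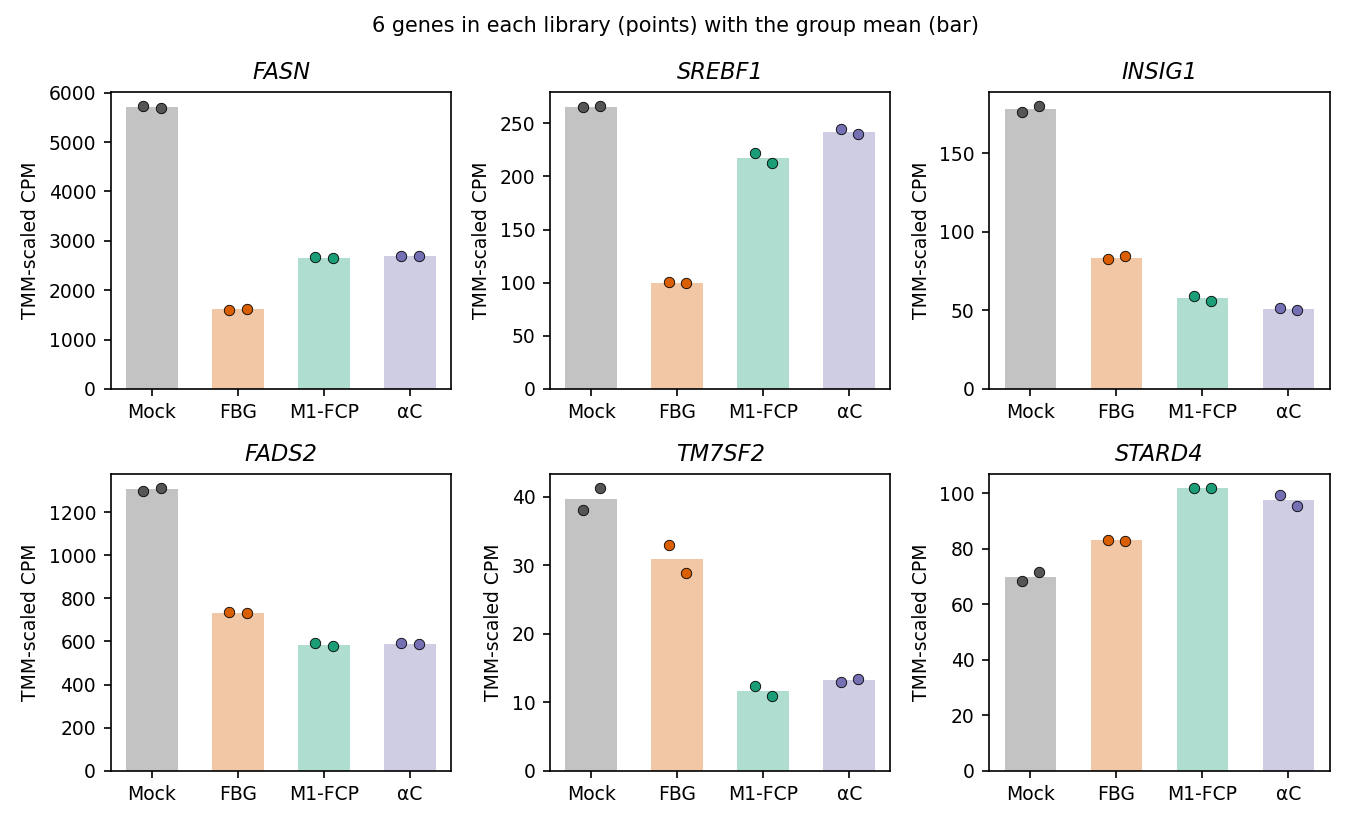
TMM-scaled CPM (y axes) of FASN, SREBF1, INSIG1, FADS2, TM7SF2 and STARD4 in Mock, FBG, M1-FCP and αC, with 1 point per library and a bar for each group mean. FASN and SREBF1 were lowest in FBG, INSIG1, FADS2 and TM7SF2 were lowest in M1-FCP and αC, and STARD4 was higher than Mock in all 3 treatments as fitted, in FBG only without removal of GC content and length trends.

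The regulators split. In FBG 4 of 6 fell and 2 rose, and in M1-FCP and in αC 5 fell and 1 rose. SREBF1 (chr17:17811334-17836986), whose product mainly drives fatty acid genes, was at 265 and 266 CPM in Mock, 100.5 and 99.4 in FBG, 222 and 213 in M1-FCP and 244 and 240.3 in αC. The FBG libraries were far below the rest. The log2 fold change was -1.41 ± 0.03 in FBG, -0.29 ± 0.02 in M1-FCP and -0.13 ± 0.02 in αC, with an adjusted p of 1.45e-20 in FBG in edgeR's quasi-likelihood test (Benjamini-Hochberg); scaled by library size only, the αC value turned to 0.10. With GC content and length trends removed it was -0.03 in αC and not called (adjusted p = 0.257 in the same test). SREBF2 (chr22:41833105-41907305), whose product mainly drives sterol genes and whose promoter is printed above with its sterol regulatory element, was at 459 and 456 CPM in Mock, 322 and 314 in FBG, 373 and 378 in M1-FCP and 401 and 404 in αC. FBG was again lowest. Its log2 fold change was -0.53 ± 0.02 in FBG, -0.29 ± 0.02 in M1-FCP and -0.18 ± 0.02 in αC. Scaled by library size only, the αC value turned to 0.05. With GC content and length trends removed the values were -0.48 in FBG, -0.49 in M1-FCP and -0.42 in αC.

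SCAP was at 134 and 138 CPM in Mock, 98.7 and 102 in FBG, 90.9 and 95.2 in M1-FCP and 97.1 and 96.9 in αC, with each treatment below Mock and a log2 fold change of -0.44 ± 0.03 in FBG, -0.55 ± 0.03 in M1-FCP and -0.49 ± 0.03 in αC. INSIG1 (chr7:155297878-155310235), itself a target of the pathway it restrains, was at 177 and 180.1 CPM in Mock, 82.6 and 84.4 in FBG, 59.4 and 56.2 in M1-FCP and 51.5 and 50.5 in αC. No pair of groups overlapped, and αC was lowest. It changed by -53.2% in FBG, -67.6% in M1-FCP and -71.4% in αC. The log2 fold change was -1.10 ± 0.04 in FBG, -1.63 ± 0.04 in M1-FCP and -1.81 ± 0.04 in αC, with an adjusted p of 1.05e-21 in αC in edgeR's quasi-likelihood test (Benjamini-Hochberg). Of its exon bases 15.7% are shared with INSIG1-DT and LOC105375592.

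INSIG2, a relative of INSIG1, was low and moved in opposite directions. It was at 11.7 and 12.1 CPM in Mock, 15.4 and 14.96 in FBG, 9.96 and 10.3 in M1-FCP and 9.09 and 9.52 in αC. With GC content and length trends removed its log2 fold change was -0.06 in FBG (not called), -0.69 in M1-FCP and -0.82 in αC. As fitted, FBG was above Mock and the other treatments below it. The fitted log2 fold changes were 0.35 ± 0.10 in FBG, -0.23 ± 0.10 in M1-FCP and -0.36 ± 0.10 in αC. The M1-FCP call was near the threshold (adjusted p = 0.0492 in edgeR's quasi-likelihood test, Benjamini-Hochberg), and leaving out 1 library at a time gave 0.0442 to 0.177, with the call lost in 7 of 8. STARD4, a carrier of cholesterol between membranes, rose in all 3 as fitted, but in FBG not with those trends removed. It was at 68.4 and 71.4 CPM in Mock, 83.2 and 82.7 in FBG, 102 and 102 in M1-FCP and 99.5 and 95.3 in αC. Relative to Mock its log2 change was 0.25 ± 0.04 in FBG, 0.54 ± 0.04 in M1-FCP and 0.48 ± 0.04 in αC, and with the same trends removed the FBG value turned to -0.01 while those of M1-FCP and αC were 0.26 and 0.22.

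The 4 genes with a second entry gave uncertain values. FDFT1, squalene synthase, was at 3.73 and 4.86 CPM in Mock, 2.16 and 2.36 in FBG, 6.596 and 6.46 in M1-FCP and 6.39 and 6.26 in αC, while its second entry held 1432 to 3770 counts per library, more than the listed entry in each. The log2 values of the listed entry against Mock were -0.93 ± 0.22 in FBG, 0.60 ± 0.18 in M1-FCP and 0.56 ± 0.18 in αC. The second entry was at 251 and 156 CPM in Mock, 138 and 96.5 in FBG, 111 and 98.4 in M1-FCP and 104 and 100.1 in αC. It went the other way in M1-FCP and αC, at -0.96 ± 0.30 and -0.998 ± 0.30 (adjusted p = 0.0426 and 0.0376 in edgeR's quasi-likelihood test, Benjamini-Hochberg), and in FBG it was at -0.80 ± 0.31, not called. FDFT1 is thus counted among the genes that rose in M1-FCP and αC on the entry with fewer reads. Without Mock replicate 1 these calls of the listed entry were lost (adjusted p = 0.075 and 0.111 in the same test). LSS, lanosterol synthase, was at 68.1 and 59.6 CPM in Mock, 32.96 and 48.4 in FBG, 56.2 and 68.1 in M1-FCP and 85.5 and 56.1 in αC, and its second entry held 11 to 461 counts. NSDHL, a sterol dehydrogenase, was at 0.934 and 1.07 CPM in Mock, 0.607 and 2.02 in FBG, 0.874 and 5.37 in M1-FCP and 4.23 and 15.3 in αC. ACACA, the acetyl-CoA carboxylase, was at 1.401 and 0.933 CPM in Mock, 0.539 and 5.86 in FBG, 1.44 and 1.31 in M1-FCP and 1.23 and 35.4 in αC, with 115 to 592 counts in its second entry. The αC replicates of NSDHL and of ACACA lay far apart, and LSS, NSDHL and ACACA were not called in any of the 6 comparisons.

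M1-FCP and αC were close to each other. In αC against M1-FCP, 9 of the 31 genes were lower and 2 higher, against 4.45% and 4.57% of tested genes. HMGCS1 (-0.15 ± 0.02), MVK (-0.19 ± 0.06), IDI1 (-0.12 ± 0.03), SQLE (-0.11 ± 0.03), CYP51A1 (-0.18 ± 0.02), SC5D (-0.23 ± 0.05), ACLY (-0.11 ± 0.01), SCD (-0.12 ± 0.01) and INSIG1 (-0.18 ± 0.04) were lower on the log2 scale. SREBF1 (0.16 ± 0.02) and SREBF2 (0.10 ± 0.02) were higher. No called difference reached 2-fold. Without M1-FCP replicate 1 the number lower fell to 4. For FASN the difference was 0.01 ± 0.01 and not called (95% interval 0.0005 to 0.0257), for FADS2 0.01 ± 0.02 (-0.02 to 0.04) and for DHCR7 -0.02 ± 0.02 (-0.07 to 0.02). The FASN interval leaves out 0, but the unadjusted p in edgeR's quasi-likelihood test was 0.11, so this normal interval is narrower than the test allows. With GC content and length trends removed, no call of this comparison was lost. The log2 value became over 1.5 times smaller for SCD (-0.08) and SREBF1 (0.10), and over 1.5 times larger for no called gene.

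Both preparations differed from intact fibrinogen in both directions, among the 31 genes as among all tested genes. In M1-FCP against FBG, 14 of 31 were higher and 11 lower, against 32.6% and 34.2% of tested genes. In αC against FBG, 13 were higher and 12 lower, against 33.8% and 34.5%. The shares that were lower were near those of all tested genes, and the shares that were higher were above them. These comparisons share the FBG libraries. In the fatty acid branch ACSS2 was higher on the log2 scale by 0.88 ± 0.03 in M1-FCP and 0.90 ± 0.03 in αC, FASN by 0.72 ± 0.01 and 0.74 ± 0.01, and SCD by 0.60 ± 0.01 and 0.48 ± 0.02. SREBF1 itself was higher by 1.12 ± 0.03 and 1.28 ± 0.03. Lower genes were PMVK (-1.44 ± 0.09 and -1.21 ± 0.09), TM7SF2 (-1.41 ± 0.09 and -1.23 ± 0.08), FADS1 (-0.67 ± 0.02 and -0.72 ± 0.02) and INSIG1 (-0.53 ± 0.04 and -0.71 ± 0.04). SREBF2 was higher by 0.24 ± 0.02 in M1-FCP, which turned to -0.02 with GC content and length trends removed. With the same trends removed its αC value went from 0.34 to 0.05, and that of FASN to 0.45. The calls of HSD17B7 and SREBF2 were then lost in M1-FCP, and those of SQLE, MSMO1 and HSD17B7 in αC. Of the called genes, 3 in M1-FCP and 7 in αC had values over 1.5 times smaller, and 2 and 1 over 1.5 times larger. The counts among the 31 were then 14 higher and 10 lower in M1-FCP, and 13 and 11 in αC.

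**Figure D3:**
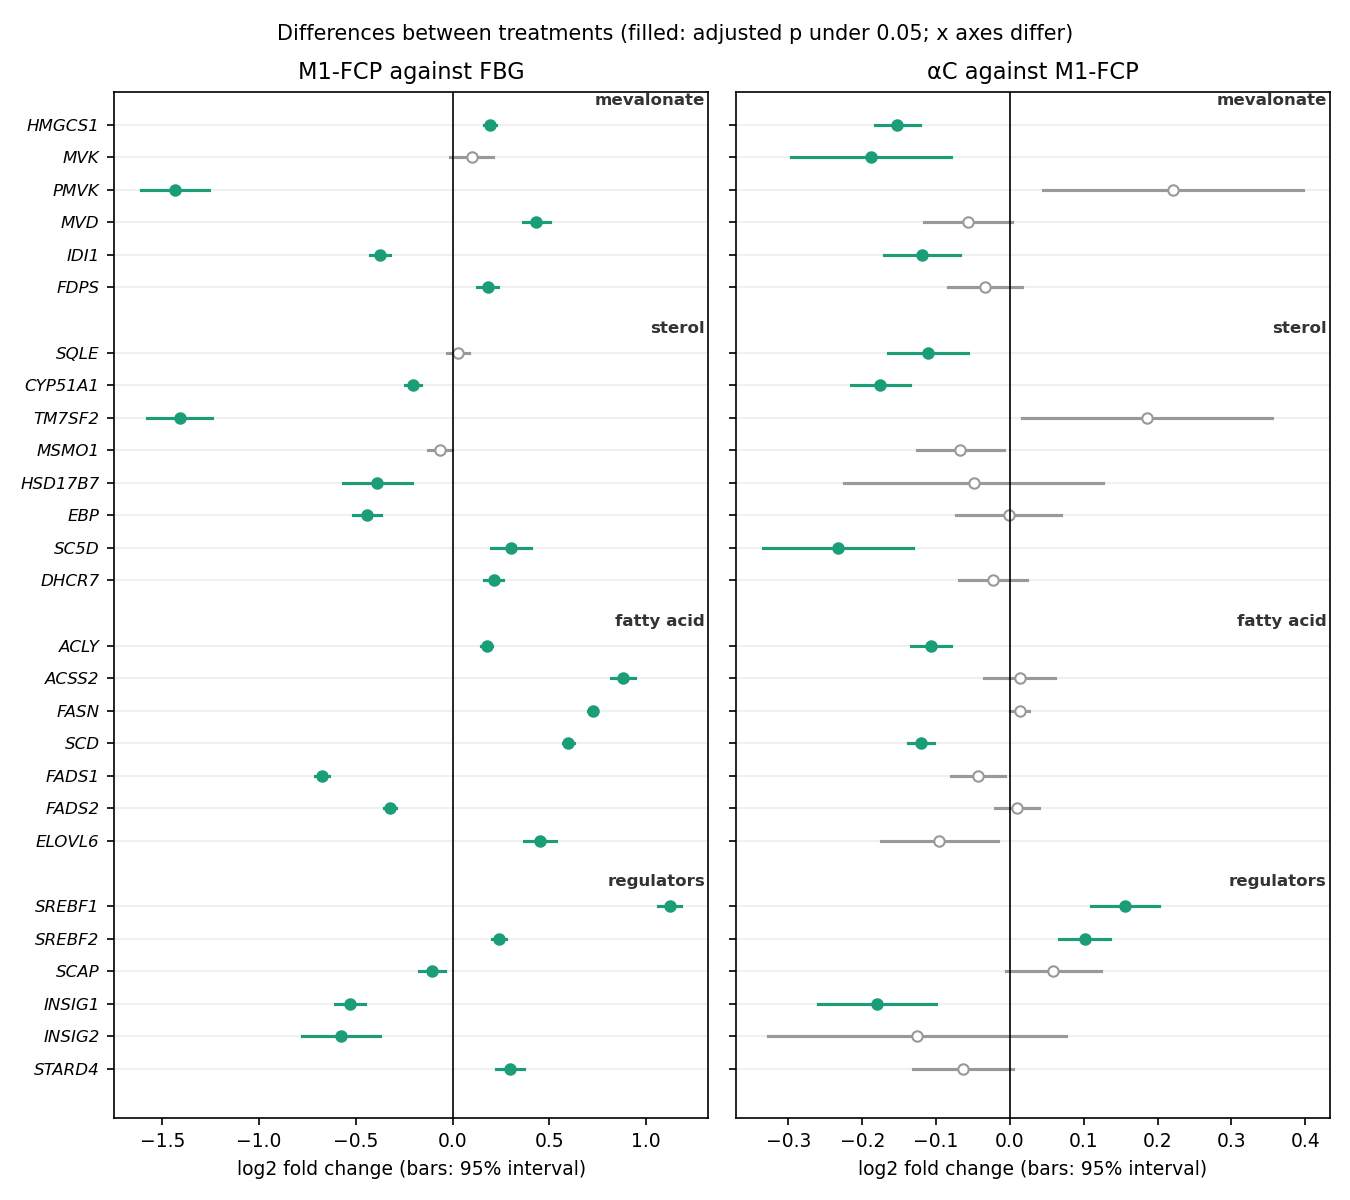
Log2 fold change (x axes, which differ in scale) of the 27 genes by branch in M1-FCP against FBG (left) and αC against M1-FCP (right); bars are 95% intervals and filled points are called genes. In the left panel SREBF1 lies highest at 1.12 and PMVK lowest at -1.44, while in the right panel the points lie between -0.23 and 0.22.

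The 27 genes took 1.52% to 1.53% of counts in Mock, 0.826% in FBG, 1.09% to 1.10% in M1-FCP and 1.06% in αC. Without FASN and SCD, the other 25 took 0.681% to 0.685% in Mock and 0.497% to 0.499% in FBG. In M1-FCP these 25 took 0.536% to 0.540%, and in αC 0.522% to 0.523%. Per kilobase of exon, the highest mean Mock levels were those of SCD at 686 CPM per kb, FASN at 675, ACLY at 289, FADS2 at 223 and FDPS at 169. The lowest were INSIG2 at 2.98 and SC5D at 6.19. In FBG the means of SCD, FASN and ACLY were 331, 190.5 and 175 CPM per kb, in the same order as in Mock. Replicates of these 27 genes differed by at most 0.11 in Mock, 0.19 in FBG, 0.19 in M1-FCP and 0.29 in αC on the log2 scale.

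**Figure D4:**
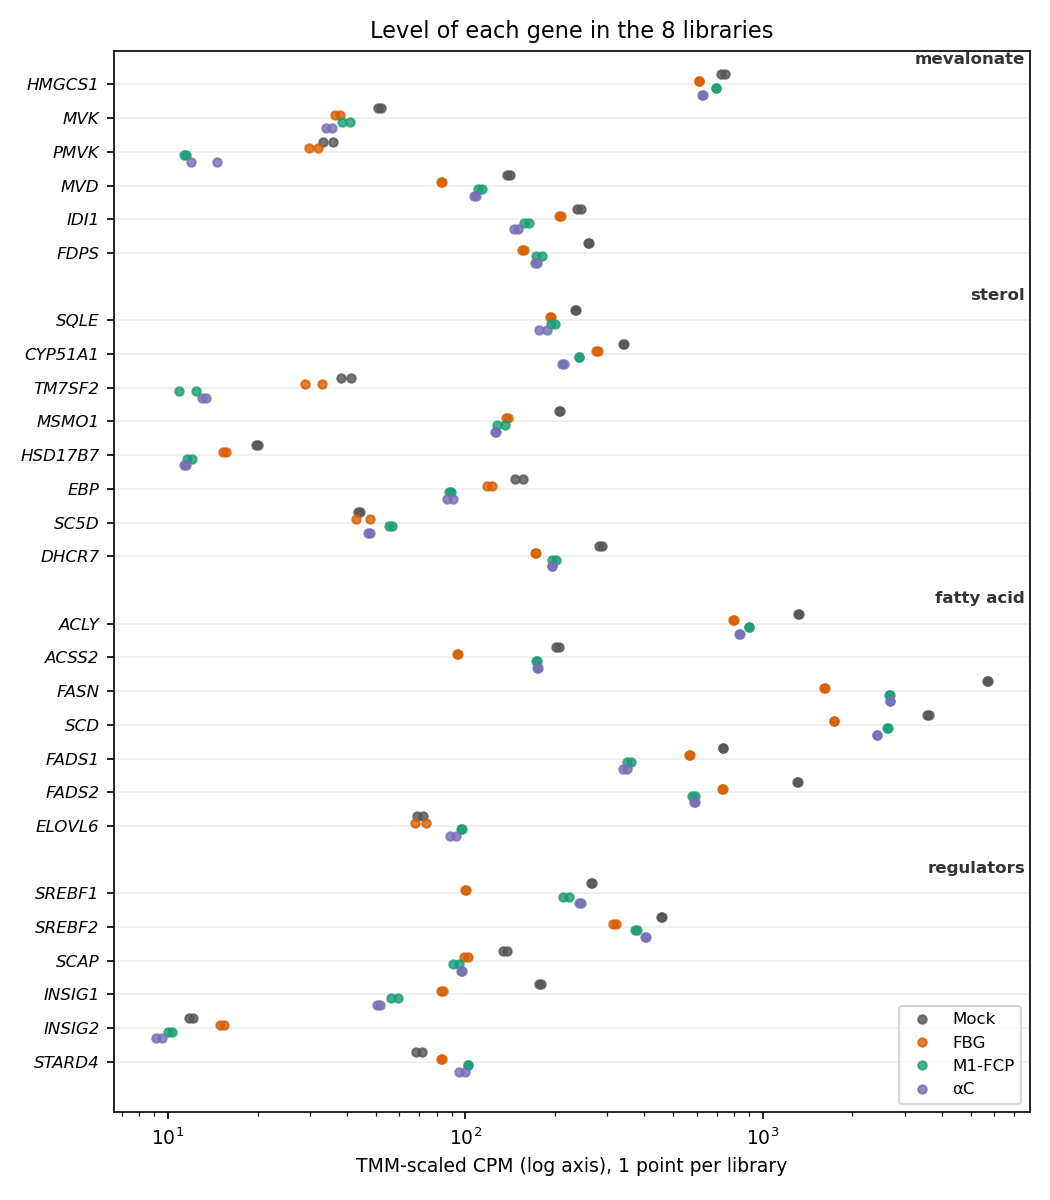
TMM-scaled CPM (x axis, log scale) of the 27 genes by branch in each of the 8 libraries, coloured by group. FASN and SCD lie furthest right, with the 2 libraries of a group nearly on top of each other.

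The difference between FBG and Mock followed the GC content of transcripts across genes. Spearman's rho between GC content and the log2 fold change was -0.41 over 13569 genes and -0.55 over the 27 genes in FBG against Mock, a description across genes that share 4 libraries. In M1-FCP against Mock it was -0.27 and -0.40, and in αC against Mock -0.23 and -0.26. Between treatments it was 0.17 and 0.65 in αC against M1-FCP, -0.08 and 0.12 in M1-FCP against FBG, and -0.04 and 0.20 in αC against FBG. The 27 genes had a GC content of 37.2% to 65.3%, with a median of 53.7% against 49.5% for all genes. In FBG, 8 of 12 genes below the median of all genes fell and 2 rose, and 14 of 15 at or above it fell. Of all tested genes 26.3% fell in FBG, and this share was not counted by GC content. With GC content and length trends removed the medians of the 12 and the 15 genes were -0.45 and -0.49. In that fit 23 of the 31 genes were lower, against 3717 of 13569 tested genes. Of the called genes among the 31, removal of these trends ended the call of 3 in FBG (TM7SF2, INSIG2 and STARD4), 1 in M1-FCP (MVD) and 2 in αC (ACSS2 and SREBF1) against Mock. It made the log2 value over 1.5 times smaller, with the same sign, for 5, 7 and 7 genes, among them EBP, which went to -0.09, -0.32 and -0.34, and MVK, which went to -0.25 in FBG and -0.18 in M1-FCP. FADS1 went to -0.20 in FBG, and DHCR7 to -0.26 in M1-FCP and -0.31 in αC. The value became over 1.5 times larger for 5, 4 and 3 genes, among them HMGCS1 at -0.47, -0.30 and -0.42, and SQLE at -0.51 in FBG and -0.44 in M1-FCP. The part of GC content in these differences was not tested further.

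**Figure D5:**
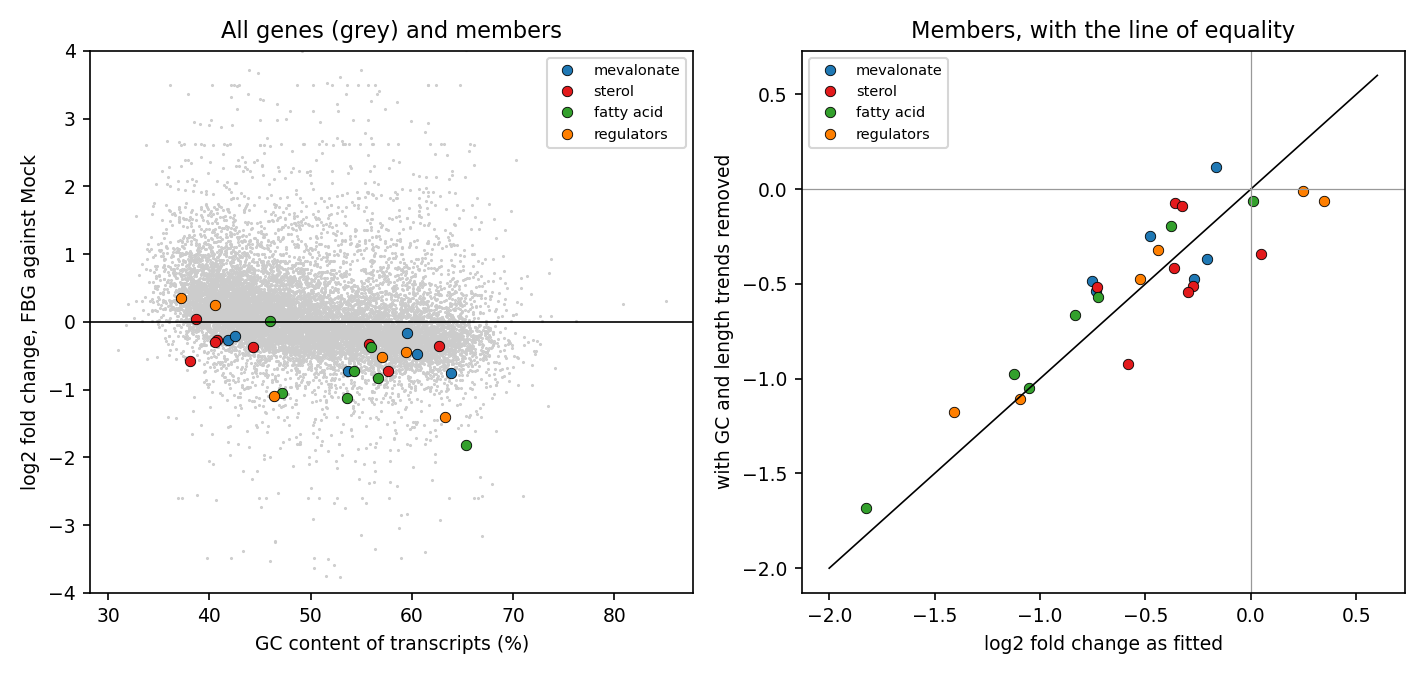
Left: log2 fold change in FBG against Mock (y axis) over transcript GC content in percent (x axis) for all genes with a value (grey) and the 27 genes by branch. Right: the log2 fold change of the 27 genes as fitted (x axis) and with GC content and length trends removed (y axis), where the 22 genes called lower lie below 0 on both axes.

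Genes next to the pathway were taken from 5 further lists and were counted in full. Of all tested genes, 26.3% fell and 24.2% rose in FBG, 36.1% and 37.3% in M1-FCP, and 36.7% and 38% in αC, as above, and each count is read against these. Of 7 further sterol synthesis genes, 3 fell and 1 rose in FBG, 6 fell in M1-FCP and 7 fell in αC. The share of these 7 that fell was above that of all tested genes in each treatment, in FBG on 3 genes only. Each value given for these genes is a log2 fold change. ERG28, a scaffold of sterol enzymes, gave -0.56 in FBG, -1.26 in M1-FCP and -1.32 in αC against Mock, -0.70 and -0.77 in M1-FCP and αC against FBG, and -0.06 (not called) in αC against M1-FCP. TMEM97, a sterol-binding membrane protein, gave 0.07 (not called) in FBG, -0.93 in M1-FCP and -1.08 in αC against Mock, -1.001 and -1.15 in M1-FCP and αC against FBG, and -0.15 in αC against M1-FCP. LBR, a lamin-binding sterol C14 reductase, gave 0.12 in FBG, -0.23 in M1-FCP and -0.31 in αC against Mock, -0.35 and -0.43 in M1-FCP and αC against FBG, and -0.08 (not called) in αC against M1-FCP, and its FBG value turned to -0.10 with GC content and length trends removed.

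Of 11 isoprenoid branch genes, 10 were tested, and 2 fell and 3 rose in FBG, 4 fell and 3 rose in M1-FCP, and 4 fell and 4 rose in αC, near the shares of all tested genes. GGPS1, the geranylgeranyl diphosphate synthase, gave 0.33 in FBG, 0.58 in M1-FCP and 0.53 in αC against Mock, 0.25 and 0.20 in M1-FCP and αC against FBG, and -0.05 (not called) in αC against M1-FCP. NUS1 and DHDDS form the enzyme that makes dolichol precursors. NUS1 gave 0.14 in FBG, 0.28 in M1-FCP and 0.29 in αC against Mock, 0.13 and 0.15 in M1-FCP and αC against FBG, and 0.01 (not called) in αC against M1-FCP. Its values against Mock turned negative with GC content and length trends removed. DHDDS gave -0.09 (not called) in FBG, -0.57 in M1-FCP and -0.67 in αC against Mock, -0.48 and -0.58 in M1-FCP and αC against FBG, and -0.10 (not called) in αC against M1-FCP. COQ2, a prenyltransferase of ubiquinone synthesis, gave -0.01 (not called) in FBG, -0.89 in M1-FCP and -0.93 in αC against Mock, -0.88 and -0.92 in M1-FCP and αC against FBG, and -0.04 (not called) in αC against M1-FCP. PDSS2, which makes the ubiquinone side chain, gave -0.23 in FBG, 0.14 (not called) in M1-FCP and 0.03 (not called) in αC against Mock, 0.37 and 0.25 in M1-FCP and αC against FBG, and -0.11 (not called) in αC against M1-FCP.

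Of 31 genes of fatty acid and lipid handling, 28 were tested, and 10 fell and 6 rose in FBG, 10 fell and 12 rose in M1-FCP, and 12 fell and 11 rose in αC, near the shares of all tested genes in M1-FCP and αC and somewhat above that of lower genes in FBG. SLC25A1, the citrate carrier of mitochondria, gave -0.53 in FBG, -0.99 in M1-FCP and -0.96 in αC against Mock, -0.46 and -0.43 in M1-FCP and αC against FBG, and 0.02 (not called) in αC against M1-FCP. TECR, the last enzyme of the elongation cycle, gave -0.53 in FBG, -0.99 in M1-FCP and -1.01 in αC against Mock, -0.46 and -0.48 in M1-FCP and αC against FBG, and -0.02 (not called) in αC against M1-FCP. ACSL1, which activates fatty acids, changed in opposite directions, with 0.54 in FBG, -1.97 in M1-FCP and -1.97 in αC against Mock, -2.51 and -2.51 in M1-FCP and αC against FBG, and 0.00 (not called) in αC against M1-FCP. ACSL3, of the same family, gave -0.01 (not called) in FBG, 0.57 in M1-FCP and 0.65 in αC against Mock, 0.58 and 0.66 in M1-FCP and αC against FBG, and 0.09 in αC against M1-FCP. FADS3, neighbour of FADS1 and FADS2, gave -0.53 in FBG, 0.42 in M1-FCP and 0.62 in αC against Mock, 0.94 and 1.15 in M1-FCP and αC against FBG, and 0.20 in αC against M1-FCP. GPAM, which starts glycerolipid synthesis, gave 0.24 in FBG, 0.41 in M1-FCP and 0.19 in αC against Mock, 0.16 and -0.06 (not called) in M1-FCP and αC against FBG, and -0.22 in αC against M1-FCP, turning to -0.08 in αC with those trends removed.

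Of 16 genes of sterol uptake, transport and efflux, 9 fell and 1 rose in FBG, and 8 fell and 6 rose in M1-FCP and in αC. The share that fell was above that of all tested genes, and the share that rose in M1-FCP and αC was near it. ABCA1, the exporter of cholesterol to apolipoproteins, was at 7.34 and 7.53 CPM in Mock, 3.98 and 4.04 in FBG, 47.5 and 48.3 in M1-FCP and 74.2 and 71.6 in αC. It gave -0.89 in FBG, 2.69 in M1-FCP and 3.29 in αC against Mock, 3.58 and 4.18 in M1-FCP and αC against FBG, and 0.61 in αC against M1-FCP. ABCA1 lies on chromosome 9, whose median difference is given above. SCARB1, a receptor for high-density lipoprotein, gave -0.35 in FBG, 0.66 in M1-FCP and 0.68 in αC against Mock, 1.01 and 1.03 in M1-FCP and αC against FBG, and 0.02 (not called) in αC against M1-FCP. NPC2, the lysosomal sterol carrier, gave 0.35 in FBG, -0.54 in M1-FCP and -0.59 in αC against Mock, -0.89 and -0.93 in M1-FCP and αC against FBG, and -0.04 (not called) in αC against M1-FCP. CAV1, the caveolar coat protein, gave -0.16 in FBG, -0.44 in M1-FCP and -0.41 in αC against Mock, -0.28 and -0.25 in M1-FCP and αC against FBG, and 0.03 (not called) in αC against M1-FCP.

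Of 13 genes of SREBP processing and the liver X receptor, 12 were tested, and 6 fell and 2 rose in FBG, 8 fell and 3 rose in M1-FCP, and 9 fell and 3 rose in αC. The share that fell was above that of all tested genes in each treatment. MBTPS1 and MBTPS2 cut the SREBPs free in the Golgi. MBTPS1 gave -0.32 in FBG, -0.42 in M1-FCP and -0.45 in αC against Mock, -0.10 and -0.13 in M1-FCP and αC against FBG, and -0.03 (not called) in αC against M1-FCP. MBTPS2 gave 0.24 in FBG, 0.39 in M1-FCP and 0.36 in αC against Mock, 0.16 and 0.12 (not called) in M1-FCP and αC against FBG, and -0.03 (not called) in αC against M1-FCP, turning to -0.04 in FBG with GC content and length trends removed. ERLIN1, which takes part in sterol-regulated degradation, gave -0.37 in FBG, -0.99 in M1-FCP and -1.11 in αC against Mock, -0.63 and -0.74 in M1-FCP and αC against FBG, and -0.11 in αC against M1-FCP. PAQR3, which holds SCAP in the Golgi, gave 0.22 in FBG, 0.28 in M1-FCP and 0.28 in αC against Mock, 0.06 (not called) and 0.07 (not called) in M1-FCP and αC against FBG, and 0.00 (not called) in αC against M1-FCP, and all 5 values against Mock and FBG turned negative with those trends removed. MLX, the partner of the factor MLXIPL, gave -0.27 in FBG, -0.77 in M1-FCP and -0.81 in αC against Mock, -0.50 and -0.53 in M1-FCP and αC against FBG, and -0.03 (not called) in αC against M1-FCP. MLXIPL was at 0.2001 and 0.267 CPM in Mock, 0.404 and 0.135 in FBG, 3.23 and 3.27 in M1-FCP and 4.82 and 3.72 in αC, and it was called higher in M1-FCP and αC. Its fold against Mock rests on a few counts and is not given.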

How the data were processed

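RNA of BEAS-2B cells was sequenced in 8 libraries of 4 groups, grouped by the titles in the labels. Per the file headers, the authors counted read pairs over the exons of each gene with featureCounts 1.6.0 in paired mode, without options for strand or multi-mapping, and deposited the raw count. The submitters' processing notes name version 1.6.2 of that tool, beside Trimmomatic 0.39, HISAT2 2.2.1, SAMtools 1.9 and GRCh38.p14. The gene length (exon bases) is the authors' other deposited value, per the file headers, and was used for levels per kb. Reads of a gene with a second entry, a pseudogene or an overlapping neighbour may be split or lost.

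All 8 libraries were fitted together with edgeR 4.0.16 in R 4.3.3 (robust quasi-likelihood, TMM scaling, filterByExpr by group, 4 residual degrees of freedom). The fit was also run on simulated data with far fewer changed genes than were called here and without a GC trend. The pass mark of that run was lowered after its outcome was seen, and no result here rests on it. Benjamini-Hochberg adjustment ran over the 16307 tested genes in each of 6 comparisons, with calls under 0.05. Printed errors are the larger of the fitted and the counting standard error, since for some genes the fitted one was smaller. The 95% intervals are normal intervals from these and cover 1 gene at a time. They can be narrower than the test allows, as for FASN in αC against M1-FCP. The lowest level that 3 counts allow was 0.135 to 0.198 CPM, for counting error only. GC content is the median over GENCODE transcripts with the symbol, and its trend and that of length were removed as splines with 5 degrees of freedom each. Alternatives were other scaling, no filter, the 2 groups alone, a replicate block, DESeq2 1.42.0 and leaving out each library; the count over genes without a second entry was added after seeing the data.

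The 31 genes and the further lists were chosen with earlier results of these data known. All 31 are described. Of each further list, the 2 genes with the smallest p in each direction among those called in FBG and in M1-FCP against Mock are named, except some that are not reported here; the counts of the lists include them, and no gene was named in their place. During the work 5 genes were taken out of the further lists after their values had been seen, and were put back before the counts given here. Other choices made after seeing values are named where they occur.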

Additional observations from a re-analysis of the deposited data

Results flagged for a closer look

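Some genes changed in opposite directions in FBG and in the other 2 treatments, and the difference was tested as M1-FCP or αC against FBG in edgeR's quasi-likelihood test with Benjamini-Hochberg adjustment; all these comparisons share libraries, and M1-FCP and αC stood apart from FBG in their cell markers. Both libraries of each treatment showed the direction given. INSIG2 had a difference on the log2 scale of -0.58 in M1-FCP (adjusted p = 3.7e-05) and -0.70 in αC (2.82e-06). FDFT1, uncertain because of its second entry, had 1.53 (1.87e-07) and 1.48 (2.75e-07) in its listed entry of 32 to 151 counts per library. Its second entry, with more reads in every library, had -0.17 and -0.20 in these comparisons, neither called, and was lower than Mock in M1-FCP (-0.96) and αC (-0.998).

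Outside the 31 genes, LBR had -0.35 in M1-FCP and -0.43 in αC, NPC2 had -0.89 and -0.93, and ACSL1 had -2.51 in both. FADS3 had 0.94 in M1-FCP and 1.15 in αC, SCARB1 had 1.01 and 1.03, and ABCA1 had 3.58 and 4.18. The adjusted p in that test was at most 2.52e-09 for these 6 genes. The rise of INSIG2 and LBR in FBG did not hold with GC content and length trends removed, where their values against Mock were -0.06 and -0.10.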

How the results depend on the processing

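Counts of called genes among the 31 stayed within 1.5 times their value under every alternative except those given here. The count higher in FBG against Mock (2) was 4 with library size only, 1 with DESeq2, and 0 in edgeR with GC content and length trends removed, with or without a replicate block (also 0 at an unadjusted p under 0.05); the replicate block alone gave 2. The count higher in αC against Mock (3) was 6 with library size only. Leaving out 1 library at a time gave 4 to 9 genes lower in αC against M1-FCP, 4 being without M1-FCP replicate 1. The labels do not say that equal numbers share a culture or day, so the numbers were not taken as pairs. Deviations of same-numbered libraries had r = -0.06 to 0.09, but replicates differed little beyond counting error, so r cannot exclude pairs. The replicate block gave 23 lower in FBG and 23 in M1-FCP against Mock. A sign change was counted only where 1 of the 2 values was called. With GC content and length trends removed, the sign changed in FBG against Mock for SC5D (-0.34), INSIG2 (-0.061, with the block -0.060), STARD4 (-0.0090, with the block -0.00911), LBR (-0.10), NUS1 (-0.22), MBTPS2 (-0.045), PAQR3 (-0.20); in M1-FCP against Mock for MVD (0.059), SC5D (-0.18), NUS1 (-0.15), PAQR3 (-0.36); in αC against Mock for SC5D (-0.41), NUS1 (-0.13), GPAM (-0.079), PAQR3 (-0.35); in M1-FCP against FBG for SREBF2 (-0.018), PAQR3 (-0.16); and in αC against FBG for PAQR3 (-0.15). The same trends with the replicate block changed the same signs, with the same rounded values except where given. With library size only, it changed in FBG against Mock for ACSL3 (0.10), in M1-FCP against Mock for HMGCS1 (0.14), in αC against Mock for ACSS2 (0.0051), SREBF1 (0.10), SREBF2 (0.047), in M1-FCP against FBG for MBTPS1 (0.0082) and in αC against FBG for SQLE (0.031). The cause of these changes was not tested. Low counts limit the listed entry of FDFT1, at 32 to 151 per library, whereas for LSS the spread of replicates does (in FBG against Mock a fitted standard error of 0.32 against 0.05 from counting).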
